A study of Sus scrofa with 8 samples.

Results

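Genes of DNA replication and of mitosis were followed in porcine pancreatic ductal organoids (PPDO) kept in 2 media. A fixed list of 49 genes was looked up by symbol in the deposited table of estimated counts, and all rows of a gene were summed. Of the 49, 46 had a row, among the 30283 genes of the table. They were 22 of 23 replication genes and 24 of 26 mitosis genes. RRM2, CCNA2 and AURKA had no row under those symbols and were not analysed here. The 46 genes passed the expression filter, and the lowest count of any of them in any library was 37.

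PPDO are epithelial cysts grown in a basement membrane gel from ducts picked out of digested pig pancreas. Bulk poly(A) RNA was sequenced from 4 lines, 1 from an embryo (Em), 2 from early postnatal pigs (EPN1 and EPN2) and 1 from a late postnatal pig (LPN). Each line was cultured for a week in complete medium (titled Control) and in differentiation medium (titled Treated), which gave 8 libraries, 4 per medium. The treatment field of the sample records names the endocrine induction medium for all 8 samples, so the medium was taken from the titles and the column headers. Both media held N2, B27 without vitamin A, the TGF-beta receptor inhibitor A83-01, the ROCK inhibitor Y-27632, nicotinamide and N-acetylcysteine. Complete medium also held the growth factors EGF and FGF10, the WNT pathway factors WNT3a and R-spondin, the BMP antagonist noggin, prostaglandin E2 and gastrin, and differentiation medium held none of these. The study used wild-type and INS-eGFP transgenic pigs, in which the porcine insulin promoter drives eGFP in beta cells, and the labels do not say which of them gave each line. Each line was represented by 1 culture per medium, and the titles and column headers give no passage number. Stage, animal, line and any difference in passage thus cannot be told apart.

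A dividing cell copies its DNA in S phase and separates the copies in mitosis. Before S phase the MCM helicase is loaded onto origins of replication by CDC6 and CDT1, and during S phase polymerases copy the strands while the ring-shaped clamp PCNA holds them on the template. Genes of this machinery are switched on by E2F factors ahead of S phase. Mitosis is driven by CDK1 with B-type cyclins, and its genes are switched on later, in G2, by a complex of MYBL2 with the MuvB core and by FOXM1. Mature pancreatic ducts divide rarely, whereas duct organoids are passaged as dividing cultures.

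Library totals ranged from 40553593 to 47910657 counts. Levels are given as CPM, in which a count is divided by the library size after scaling by a TMM factor, so that libraries of different depth can be compared. Levels of different genes were not compared, because gene length was not used. The duct markers EPCAM, CDH1, KRT7, KRT8, KRT18, SOX9 and CFTR were all detected, and EPCAM, an epithelial adhesion protein, had a mean of 441 ± 96.4 CPM (SD, n = 4) over the cultures in complete medium and of 448 ± 194 CPM over those in differentiation medium. In EPN2, KRT7, KRT8 and KRT18 were lower in differentiation medium by log2 values of -1.89, -2.42 and -3.05, and in LPN by -0.85, -1.07 and -0.50, whereas in Em and EPN1 they were higher. CFTR, the chloride channel of duct cells, was lower by -4.84 in EPN2 and by -1.40 in Em and higher by 1.71 in LPN and 1.47 in EPN1, and CDH1 was higher in all 4 lines, by 0.67 to 1.44. The separate cultures of a line deviated together from the mean of their medium. The correlation over genes was 0.4 to 0.657 in the 4 within-line pairs. The 12 between-line pairs gave -0.479 to 0.242, where centring on the medium mean by itself pulls the values down. Because cultures of a line went together, each comparison of the media was made without the line and again with it as a block.

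The first question was whether the 2 groups of genes differed between the media. Mitosis genes were lower in differentiation medium in nearly all lines, and replication genes differed less. The median log2 fold change was -0.85 for the 24 mitosis genes and -0.27 for the 22 replication genes, against 0.01 for all 14475 genes tested. With the line as a block, the medians were -0.98, -0.36 and -0.01. The replication median without the block depended on single libraries. It was 0.03 without Em in complete medium, and in differentiation medium it was -0.72 without Em, -0.02 without LPN and -0.17 without EPN2, or -0.41 without LPN in complete medium. The mitosis median stayed below 0, between -1.28 without Em and -0.59 without LPN, both in differentiation medium. Blocked fits with a whole line left out were added after the data were seen. In them the replication median lay between -0.42 and -0.18, and the mitosis median between -1.09 and -0.83. In bulk RNA, fewer cycling cells and less RNA of these genes per cell cannot be told apart.

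The level of each group was first read library by library, as the mean over its genes of log2 CPM after each gene was centred on its own mean over the 8 libraries. The mitosis genes went from 1.04 in complete to 0.50 in differentiation medium in Em, from -0.11 to -1.49 in LPN, from 0.61 to -0.53 in EPN1 and from 0.28 to -0.30 in EPN2. The replication genes went from 0.75 to 0.64 in Em, from -0.13 to -0.89 in LPN, from 0.12 to -0.18 in EPN1 and from -0.04 to -0.27 in EPN2. All 4 lines were lower in differentiation medium for both groups. Em in differentiation medium was still above LPN in complete medium for both groups.

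**Figure D1:**
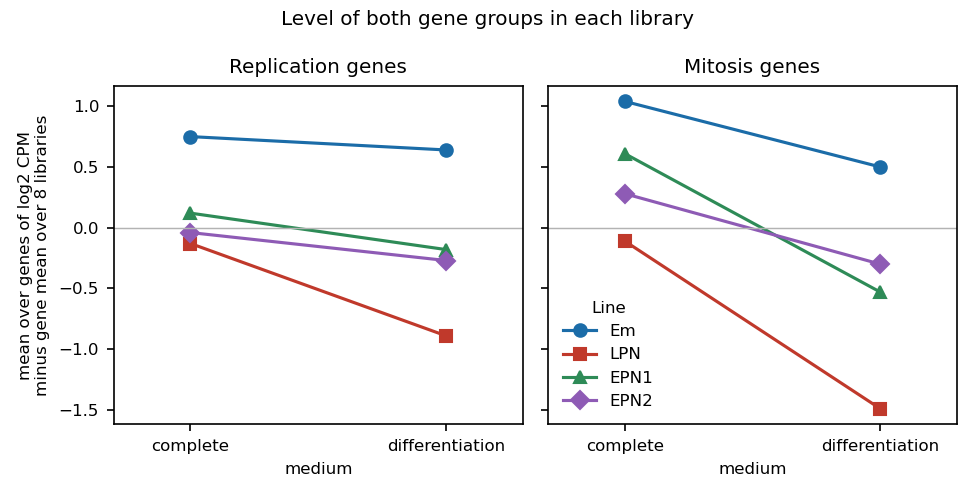
Mean over the replication genes (left, n = 22) and the mitosis genes (right, n = 24) of log2 CPM centred per gene on its mean over 8 libraries, by medium, with 1 line of points per organoid line. Every line slopes down from complete to differentiation medium, the mitosis genes by 0.54 to 1.38 and the replication genes by 0.11 to 0.77 on the log2 scale. No error bars are drawn because each point is 1 library.

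The difference between the groups within a library does not depend on the scaling of libraries. On this centred log2 scale, mitosis minus replication was 0.28 in Em, 0.02 in LPN, 0.49 in EPN1 and 0.32 in EPN2 in complete medium. In differentiation medium it was -0.15, -0.59, -0.35 and -0.02. The centring sets 0 at the average of the 8 libraries, so the sign of a single value was not read. From complete to differentiation medium the difference changed by -0.43, -0.61, -0.84 and -0.35 in Em, LPN, EPN1 and EPN2. The mean change of this difference was -0.56 ± 0.22 (SD, n = 4). It was described without a test.

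Gene by gene, 21 of the 24 mitosis genes were lower in differentiation medium in all 4 lines, against 23.7% of all genes tested, as were 9 of the 22 replication genes. MCM7, PCNA and AURKB were higher in all 4 lines, which held for 23.3% of all genes, and the other 11 replication genes and 2 mitosis genes (NUSAP1 and SMC2) differed in direction between lines. The per-line medians were deepest in LPN, with -1.46 for the mitosis and -0.88 for the replication genes. In EPN1 they were -1.29 and -0.27, in EPN2 -0.54 and -0.24, and in Em -0.56 and -0.07. Genes lower in differentiation medium numbered 23 mitosis and 12 replication genes in Em, 23 and 20 in LPN, 22 and 15 in EPN1, and 22 and 15 in EPN2. Over all genes tested the share that was lower was 49.5% in Em, 50.5% in LPN, 49.5% in EPN1 and 50% in EPN2.

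**Figure D2:**
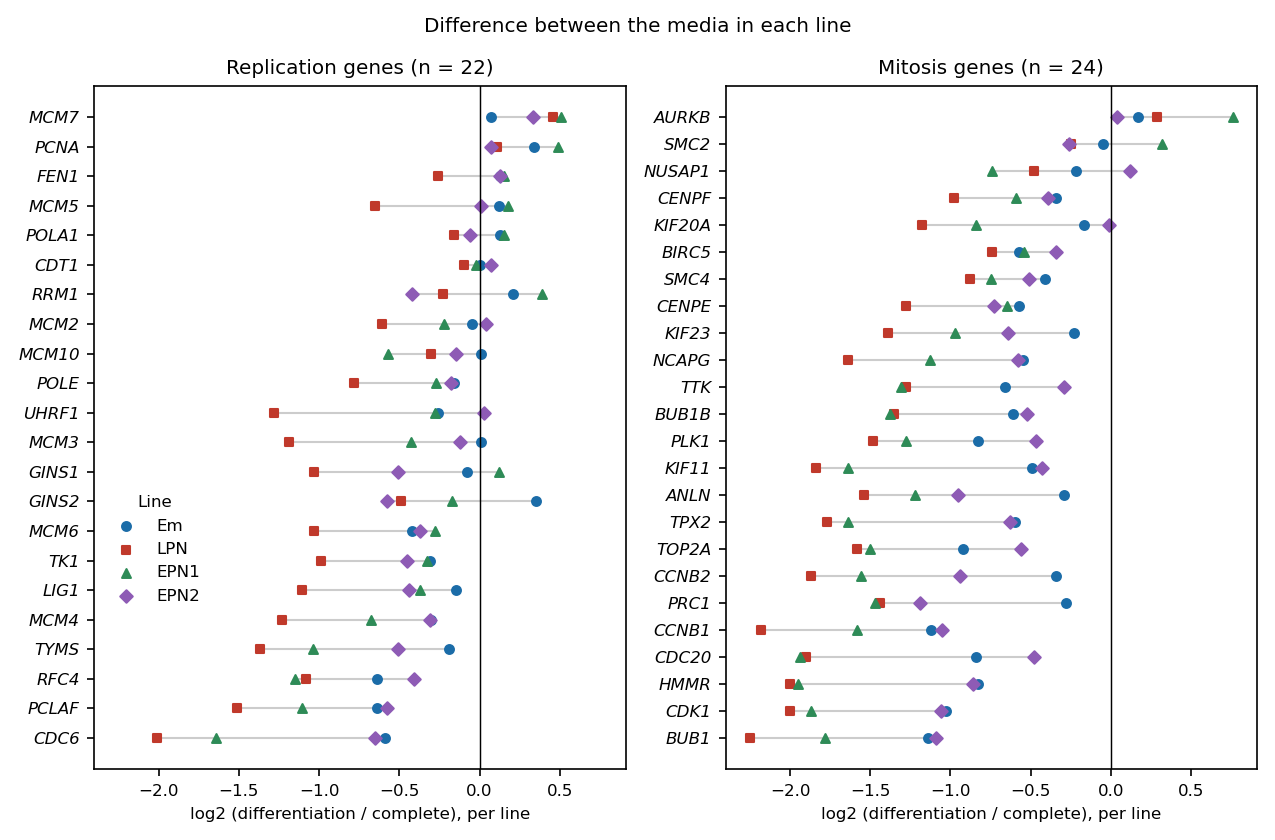
Log2 ratio of differentiation to complete medium (x axis) for each replication gene (left) and mitosis gene (right), with 1 symbol per organoid line and a grey bar over the range of the 4 lines. Genes are ordered by their median over lines, from MCM7 and AURKB at the top to CDC6 and BUB1 at the bottom, and LPN or EPN1 gives the lowest value of most mitosis genes.

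In the edgeR test without the line, the threshold of an adjusted p-value under 0.05 was passed by no member. That test called 4.1% of all genes as lower and 2.87% as higher. Without adjustment 9 of the 46 members were under 0.05, against 27.3% of all genes. They were 2 of the 22 replication genes, below that share, and 7 of the 24 mitosis genes, near it. DESeq2 without the line called 1 member, BUB1, as lower (9% of genes lower). The spread between lines within a medium was wide for these genes. The levels in the 2 media overlapped for every member except BUB1, while 9.98% of all genes were lower without overlap.

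With the line as a block, edgeR called 19 of the 46 members as lower, against 10.4% of all genes, and none as higher, against 9.48%. The 19 were 17 of the 24 mitosis genes, above the share of all genes, and 2 of the 22 replication genes, PCLAF and RFC4, near that share. Without adjustment 29 members were under 0.05, against 39.7% of all genes. They were 20 of the 24 mitosis genes and 9 of the 22 replication genes, the latter near that share. DESeq2 with the block called 20 mitosis and 7 replication genes as lower and 1 replication gene, MCM7, as higher, where it called 16.7% of all genes as lower and 18.2% as higher. The calls depended on which lines were in the fit. With either EPN1 or LPN left out, the blocked edgeR test called no member. In the whole table it then called 8 genes without EPN1 and 22 without LPN, instead of 2884. The fold changes moved less. The blocked mitosis median was -0.91 without EPN1 and -0.83 without LPN, against -0.98 with all lines. The blocked replication median was -0.40 and -0.18, against -0.36. Without Em the blocked edgeR test called 11 mitosis genes and 1 replication gene, and 1730 genes in the whole table. Without EPN2 it called 15 and 2, and 2989 in the whole table.

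**Figure D3:**
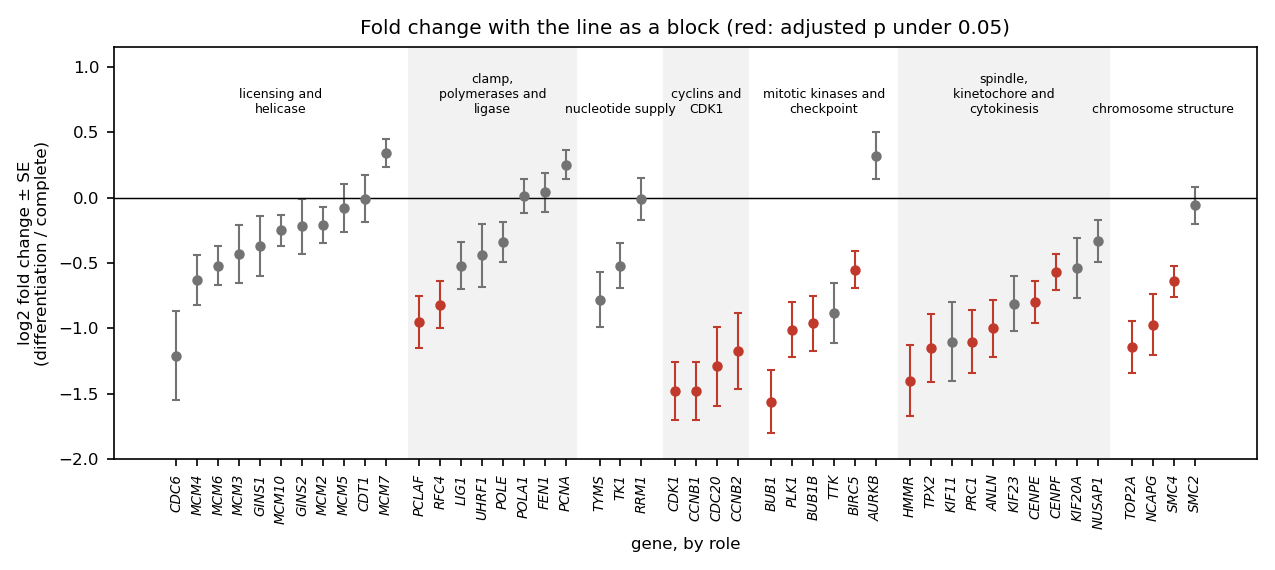
Log2 fold change between the media (differentiation over complete) with its SE, from the edgeR fit with the organoid line as a block, for the 46 genes grouped by role. Red points passed an adjusted p-value under 0.05, and all 19 of them lie below 0. MCM7, AURKB and PCNA lie highest and did not pass.

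The cyclins and their partners had the deepest median of the role groups. For CDK1, CCNB1, CCNB2 and CDC20 it was -1.26 without and -1.38 with the block, and all 4 passed the blocked test. Here and in what follows, means of CPM are given ± SD over the 4 lines and fitted log2 fold changes ± SE, and blocked values and calls are those of edgeR unless DESeq2 is named. CDK1, the kinase that drives entry into mitosis, stood at 43.2, 15.3, 31.4 and 22.6 CPM in complete medium in Em, LPN, EPN1 and EPN2, and at 21.2, 3.84, 8.62 and 10.9 CPM in differentiation medium. Each line was lower in differentiation medium, and Em in differentiation medium was above LPN in complete medium, so the media overlapped. Its log2 fold change was -1.34 ± 0.52 (SE; adjusted p = 0.149) without and -1.48 ± 0.22 (adjusted p = 0.0170) with the block. CCNB1, which encodes cyclin B1, the activating partner of CDK1, followed the same order of lines. It stood at 67.4, 21.6, 37.1 and 31.5 CPM in complete medium, against 30.9, 4.78, 12.4 and 15.2 CPM in differentiation medium, with a blocked log2 fold change of -1.48 ± 0.22 (adjusted p = 0.0165). CCNB2, the second B-type cyclin, had a mean of 13.0 ± 5.05 CPM (SD, n = 4) over the cultures in complete medium and of 6.84 ± 5.32 CPM over those in differentiation medium, and its blocked log2 fold change was -1.17 ± 0.29 (adjusted p = 0.0462). CDC20 activates the ubiquitin ligase that ends mitosis. It was lower by log2 values of -0.84, -1.90, -1.94 and -0.48 in Em, LPN, EPN1 and EPN2 (blocked -1.29 ± 0.30, adjusted p = 0.0389).

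Among the mitotic kinases and the spindle checkpoint, 5 of 6 genes were lower in all 4 lines and 4 passed the blocked test. BUB1, a kinase of the spindle checkpoint that sits at kinetochores, was the member with the deepest fold change and the only one whose media did not overlap. It stood at 39.2, 19.1, 32.7 and 26.4 CPM in complete medium in Em, LPN, EPN1 and EPN2, and at 17.8, 4.01, 9.52 and 12.4 CPM in differentiation medium. The lowest level in complete medium, in LPN, was thus just above the highest in differentiation medium, in Em. Its log2 fold change was -1.42 ± 0.44 (SE; adjusted p = 0.0866) without and -1.56 ± 0.24 (adjusted p = 0.0171) with the block. BUB1B, which encodes the checkpoint protein BUBR1, had 24.1 ± 7.04 CPM in complete medium, against 13.3 ± 6.88 CPM in differentiation medium (blocked -0.96 ± 0.21, adjusted p = 0.0325). PLK1, a kinase needed for centrosome maturation and spindle assembly, had 21.2 ± 6.99 and 11.2 ± 5.44 CPM (blocked -1.01 ± 0.21, adjusted p = 0.0293). BIRC5 encodes survivin, a subunit of the chromosomal passenger complex, and differed less, with 15.6 ± 4.17 and 10.8 ± 3.19 CPM (blocked -0.55 ± 0.14, adjusted p = 0.0482). TTK, the checkpoint kinase MPS1, was lower in all 4 lines with a blocked adjusted p of 0.0508.

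AURKB, the kinase of the same passenger complex as BIRC5, was the exception. It stood at 12.0, 6.48, 7.04 and 8.34 CPM in complete medium, against 13.5, 7.95, 11.9 and 8.59 CPM in differentiation medium in Em, LPN, EPN1 and EPN2. All 4 lines were higher in differentiation medium, EPN1 most and EPN2 least, with a blocked log2 fold change of 0.32 ± 0.18 that did not pass (adjusted p = 0.253). INCENP, the scaffold of the complex, had a blocked value of -0.24 ± 0.14 (adjusted p = 0.240), and CDCA8, its borealin subunit, of -1.05 ± 0.32 (adjusted p = 0.0669).

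Genes of the spindle, the kinetochore and cytokinesis were lower in all 4 lines in 9 of 10 cases, and 6 passed the blocked test. HMMR encodes a spindle-associated hyaluronan receptor. It had 44.3, 16.1, 34.8 and 23.5 CPM in complete medium, against 25.0, 4.01, 9.05 and 13.0 CPM in differentiation medium in Em, LPN, EPN1 and EPN2, with a blocked log2 fold change of -1.40 ± 0.27 (adjusted p = 0.0261). LPN and EPN1 had the larger differences, of -2.0 and -1.95. TPX2, which activates aurora A on spindle microtubules, showed the same division between lines, with -1.77 and -1.64 in LPN and EPN1 against -0.60 and -0.63 in Em and EPN2 (blocked -1.15 ± 0.26, adjusted p = 0.0356). PRC1 bundles the microtubules of the central spindle, and ANLN (anillin) organises the contractile ring. PRC1 was lower by -0.28 in Em and by -1.44, -1.47 and -1.19 in LPN, EPN1 and EPN2 (blocked -1.10 ± 0.24, adjusted p = 0.0344). ANLN was lower by -0.29 in Em and by -1.54, -1.22 and -0.95 in the same 3 lines (blocked -1.0 ± 0.22, adjusted p = 0.0345). Both genes thus had their smallest difference in Em.

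CENPE and CENPF, large proteins of the outer kinetochore, had smaller and more even differences. CENPE had 28.9 ± 11.2 CPM in complete medium, against 17.5 ± 9.27 CPM in differentiation medium (blocked -0.80 ± 0.16, adjusted p = 0.0261), and CENPF had 58.1 ± 24.2 and 41.2 ± 22.7 CPM (blocked -0.57 ± 0.14, adjusted p = 0.0422). The kinesins KIF11, KIF23 and KIF20A, motors of spindle poles and of the midzone, were lower in all 4 lines without passing, with blocked adjusted p-values of 0.0548, 0.0516 and 0.140. NUSAP1, a microtubule-binding protein, had a blocked value of -0.33 ± 0.16 (adjusted p = 0.186) and was higher in differentiation medium in EPN2. Its annotation overlaps NDUFAF1 and OIP5.

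Of the genes of chromosome structure, 3 of 4 were lower in all lines and passed the blocked test. TOP2A, the topoisomerase that untangles sister chromatids, had 183, 51.7, 102 and 69.8 CPM in complete medium, against 97.1, 17.3, 36.0 and 47.4 CPM in differentiation medium in Em, LPN, EPN1 and EPN2. Em was highest and LPN lowest in both media, with means over lines of 102 ± 58.2 and 49.5 ± 34.1 CPM. The log2 fold change of TOP2A was -1.04 ± 0.57 (SE; adjusted p = 0.271) without and -1.14 ± 0.20 (adjusted p = 0.0225) with the block. The condensin subunits SMC4 and NCAPG had -0.64 ± 0.12 (adjusted p = 0.0233) and -0.97 ± 0.23 (adjusted p = 0.0422). SMC2, which pairs with SMC4 in every condensin, had 56.8, 24.1, 26 and 33.6 CPM in complete medium, against 54.8, 20.2, 32.5 and 28.1 CPM in differentiation medium. It was higher in EPN1 and lower in the other lines, with a blocked log2 fold change of -0.06 ± 0.14 (adjusted p = 0.767).

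**Figure D4:**
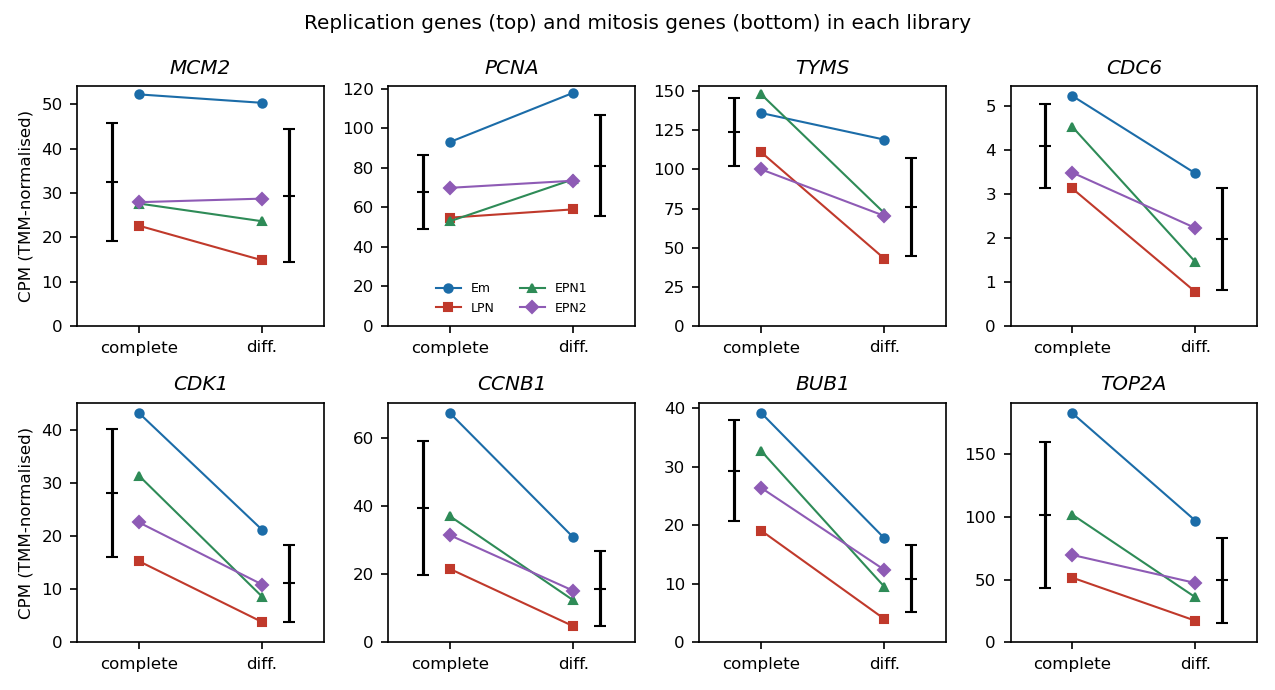
CPM of 4 replication genes (top) and 4 mitosis genes (bottom) in complete and differentiation (diff.) medium, with 1 connected pair of points per organoid line and the mean ± SD of the 4 lines in black beside each medium. The pairs of CDK1, CCNB1, BUB1 and TOP2A all slope down, those of PCNA all slope up, and those of MCM2 run nearly level except in LPN and EPN1.

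The licensing and helicase genes differed little, with a median log2 fold change of -0.21 (-0.25 with the block), and none of the 11 passed the blocked edgeR test. DESeq2 with the block called MCM4, MCM6 and CDC6 as lower and MCM7 as higher (adjusted p = 0.0231, 0.0260, 0.00575 and 0.0229). MCM2, a subunit of the hexameric helicase, stood at 52.2, 22.6, 27.6 and 27.9 CPM in complete medium, against 50.3, 14.8, 23.6 and 28.7 CPM in differentiation medium in Em, LPN, EPN1 and EPN2. LPN was lower by -0.61, and the other lines lay between -0.22 and 0.04. The fitted log2 fold change was -0.15 ± 0.40 (SE; adjusted p = 0.842), or -0.21 ± 0.14 with the block (adjusted p = 0.317). MCM5, another subunit, had a mean of 19.0 ± 7.74 CPM in complete medium, against 19.0 ± 10.2 CPM in differentiation medium and a blocked value of -0.08 ± 0.18 (adjusted p = 0.759). MCM4 was lower in all 4 lines, by -0.30, -1.23, -0.68 and -0.31 (blocked -0.63 ± 0.19, adjusted p = 0.0655), and 2 gene entries of the table were summed for it. MCM7, the subunit at the other end of the range, was higher in all 4 lines by 0.07, 0.46, 0.51 and 0.33 (blocked 0.34 ± 0.11, adjusted p = 0.0784). Subunits of the same hexamer thus ranged from -0.63 to 0.34.

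CDC6, the loader of the helicase, was the replication gene with the deepest difference. It stood at 5.22, 3.12, 4.52 and 3.48 CPM in complete medium, against 3.46, 0.772, 1.45 and 2.22 CPM in differentiation medium. All 4 lines were lower, LPN and EPN1 by -2.01 and -1.64 and Em and EPN2 by -0.59 and -0.65. Its blocked log2 fold change of -1.21 ± 0.34 did not pass (adjusted p = 0.0583). CDT1, which loads the helicase together with CDC6, lay between -0.10 and 0.07 in all 4 lines, with a blocked value of -0.01 ± 0.18 (adjusted p = 0.966). GINS1 and GINS2, subunits of the complex that completes the active helicase, had blocked values of -0.37 and -0.22 and did not pass (adjusted p = 0.274 and 0.462).

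Of the genes of the clamp, the polymerases and the ligase, 2 of 8 passed the blocked test. They were the only 2 of the 22 replication genes to do so, near the 10.4% of all genes called lower. PCLAF, a small protein that binds PCNA, had 38.7, 12.6, 20.0 and 26.1 CPM in complete medium, against 24.9, 4.42, 9.30 and 17.4 CPM in differentiation medium in Em, LPN, EPN1 and EPN2. All lines were lower, by -0.64, -1.51, -1.11 and -0.58, and the blocked log2 fold change was -0.95 ± 0.20 (adjusted p = 0.0305). RFC4 is a subunit of the clamp loader. It had 16.7 ± 4.81 CPM in complete medium, against 9.43 ± 2.83 CPM in differentiation medium (blocked -0.82 ± 0.18, adjusted p = 0.0357), and its annotation overlaps EIF4A2. PCNA itself went the other way. It had 93.1, 54.8, 53.0 and 69.9 CPM in complete medium, against 118, 59.0, 74.2 and 73.5 CPM in differentiation medium, higher in all 4 lines by 0.34, 0.11, 0.49 and 0.07. The blocked log2 fold change of 0.25 ± 0.11 did not pass (adjusted p = 0.152). The remaining 5 genes did not pass either. POLA1 and POLE, catalytic subunits of polymerases alpha and epsilon, had blocked values of 0.01 and -0.34. LIG1, the ligase that seals Okazaki fragments, had -0.52, UHRF1, which carries DNA methylation through replication, had -0.44, and the flap nuclease FEN1 had 0.04. For FEN1, 44.7% of the counts lay in rows for extended transcript ends.

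The nucleotide supply genes lay between the other groups, and none of the 3 passed in edgeR, while DESeq2 with the block called TYMS and TK1 as lower (adjusted p = 0.0104 and 0.0297). TYMS, thymidylate synthase, had 136, 111, 148 and 100 CPM in complete medium, against 119, 43.0, 72.1 and 70.3 CPM in differentiation medium in Em, LPN, EPN1 and EPN2. LPN and EPN1 differed by -1.37 and -1.04, and Em by only -0.19. The blocked log2 fold change was -0.78 ± 0.21 (adjusted p = 0.0563). TK1, the thymidine kinase of the salvage route, was lower in all 4 lines, with 15.9 ± 3.31 and 11.5 ± 3.96 CPM (blocked -0.52 ± 0.17, adjusted p = 0.0835). RRM1, the large subunit of ribonucleotide reductase, was higher in Em and EPN1 and lower in LPN and EPN2 (blocked -0.01 ± 0.16, adjusted p = 0.955).

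The second question was how the lines differed. Em had the highest level of 40 of the 46 members in complete medium, where it was highest for 28.2% of all genes tested, and of 45 in differentiation medium (30% of all genes). LPN had the lowest level of 34 in complete medium (18.4%) and of 44 in differentiation medium (22.3%). In complete medium all 24 mitosis genes were lowest in LPN, but only 10 of the 22 replication genes. Relative to EPN1 and averaged over the media, the median log2 difference of the replication genes was 0.74 in Em, -0.53 in LPN and -0.04 in EPN2. For the mitosis genes it was 0.83, -0.90 and -0.07. EPN1 and EPN2, both from early postnatal pigs, lay close together in this average, but within a medium the mitosis genes of EPN1 were above those of EPN2 in complete medium (0.61 and 0.28) and below them in differentiation medium (-0.53 and -0.30).

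In the edgeR F test for the line with the medium as a term, 6 of 46 members passed an adjusted p-value under 0.05, against 5.14% of all genes. They were MCM2 (adjusted p = 0.0464), MCM6 (0.0400), PCLAF (0.0494) and POLE (0.0381) of the replication genes and CENPF (0.0384) and TOP2A (0.0471) of the mitosis genes. Without adjustment 38 members were under 0.05, against 28.2% of all genes. MCM6 had 88.2 CPM in Em and 33.9 to 39.9 CPM in the other lines in complete medium, and 66.1 CPM against 16.6 to 32.9 CPM in differentiation medium. POLE had 36.0 CPM in Em and 13.2 to 17.3 CPM in the others in complete medium, and 32.3 against 7.66 to 15.3 CPM in differentiation medium. Of these 6 genes, PCLAF, CENPF and TOP2A also passed the blocked test between the media, and MCM2, MCM6 and POLE did not. Most of these calls were lost when any 1 library except EPN2 in complete medium was left out. Such a fit keeps 1 library of that line, and the calls over all genes also fell in each of those fits.

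**Figure D5:**
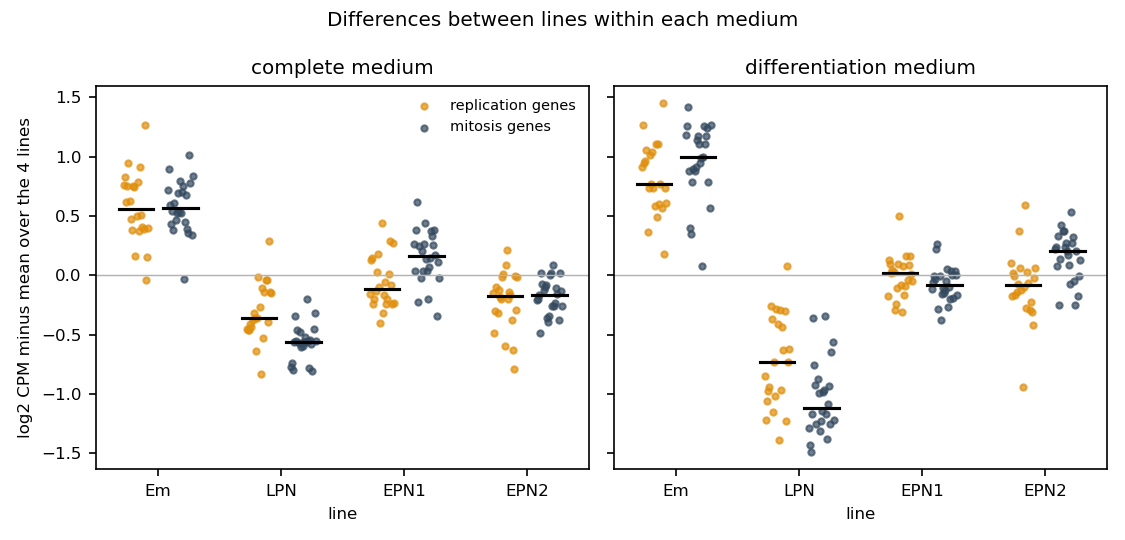
Log2 CPM of each gene minus its mean over the 4 lines, in complete (left) and differentiation medium (right), with 1 point per gene, replication genes in orange, mitosis genes in dark blue, and a black bar at the median. Most genes lie highest in Em in both media, and all mitosis genes lie lowest in LPN in both. Of the 22 replication genes, 10 lie lowest in LPN in complete and 20 in differentiation medium. LPN lies lower in differentiation than in complete medium.

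Other genes of the same processes were taken from lists beside the 46. Of 38 other replication genes, 34 were present. None passed without the block in edgeR, where 6 were under 0.05 without adjustment, and 2 were lower with the block. DESeq2 without the block called 1 as lower, against 9% of all genes. These edgeR shares are below the 27.3% and 10.4% of all genes given for the same tests. The 2 genes were RFC2 (-0.67 ± 0.11, adjusted p = 0.0197), a second subunit of the clamp loader, and POLD2 (-0.77 ± 0.18, adjusted p = 0.0415), a subunit of polymerase delta. The median of the list was -0.34 without and -0.35 with the block. DESeq2 with the block called 12 of the 34 as lower and none as higher, against 16.7% and 18.2% of all genes. In all 4 lines 19 of the 34 were lower and 3 higher, against 23.7% and 23.3% of all genes. Of 58 other mitosis genes, 54 were present and 45 were lower in all 4 lines, against 23.7% of all genes. None passed without the block in edgeR, where 21 were under 0.05 without adjustment, against 27.3% of all genes. DESeq2 without the block called 7, all lower, against 9% of all genes. With the block 30 were lower, against 10.4% of all genes, and none higher, and the medians were -0.89 and -0.99. Among the 30 were RACGAP1 (-1.45 ± 0.20, adjusted p = 0.0153), part of the central spindle, the checkpoint gene MAD2L1 (-1.41 ± 0.20, adjusted p = 0.0156) and the ubiquitin-conjugating enzyme UBE2C (-1.35 ± 0.21, adjusted p = 0.0178). MKI67 had no row under that symbol and was not analysed here.

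All 14 listed genes of the E2F, RB, MYB and FOXM1 regulators were tested. Their median log2 fold change was -0.27, and -0.33 with the block, where 2 passed, both lower. In edgeR without the block none passed, 2 were under 0.05 without adjustment, and DESeq2 called 1, as higher. With 14 genes, these counts are near or below what the shares over all genes (10.4% lower with the block, 27.3% without adjustment) would give. MYBL2, the MYB factor of the mitotic complex, had 48.2, 31.6, 42.7 and 43.1 CPM in complete medium, against 37.1, 9.58, 20.6 and 26.3 CPM in differentiation medium in Em, LPN, EPN1 and EPN2. All 4 lines were lower (blocked -0.96 ± 0.23, adjusted p = 0.0436). RBL1, which encodes the pocket protein p107, was also lower (-0.40 ± 0.10, adjusted p = 0.0416). FOXM1 had 11.6, 4.39, 6.80 and 5.72 CPM in complete medium, against 8.45, 2.15, 3.8 and 4.13 CPM in differentiation medium, lower in each line, and did not pass (blocked -0.70 ± 0.20, adjusted p = 0.0591). E2F1, an activator of replication genes, had a blocked value of -0.44 ± 0.23 (adjusted p = 0.207), and E2F4, a repressor of the family, had 0.47 ± 0.15 (adjusted p = 0.0714).

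Markers of other cell types that could be in the cultures were read as well. The 6 stromal markers summed to 0.791 to 6.21 CPM in complete medium, against 0.668 to 8.95 CPM in differentiation medium, and differed in direction. PDGFRB was lower in differentiation medium with the block (-3.04, adjusted p = 0.0160). COL3A1, which did not pass the expression filter, went from 0.0216 to 5.03 CPM in Em and from 0.024 to 6.06 CPM in EPN1. The means of COL1A2 and DCN were also higher in differentiation medium. That of LUM was lower, and that of COL1A1 was similar (0.303 and 0.300 CPM). Of the endothelial markers CDH5 was at or near 0 while PECAM1 and KDR were detected, with sums of 21.8 to 34.9 and 15.6 to 43.9 CPM for the list of 4. The 4 immune markers summed to 6.43 to 58.3 and 9.77 to 34.4 CPM, with CD3E at or near 0. CD68 had means of 30.0 and 14.8 CPM, and PTPRC of 0.850 and 0.212 CPM. LYZ went the other way in its means, 4.21 and 6.92 CPM. It was at 0 in complete medium in Em and EPN1, and lower in differentiation medium in LPN and EPN2. None of these 3 passed with the block. Of the 5 acinar markers 2 were present and summed to at most 0.697 CPM, with PNLIP at 0, and the 4 endocrine markers summed to 0.144 to 2.40 and 0.0700 to 21.3 CPM. Among the duct markers, CDH1 was higher with the block (1.11, adjusted p = 0.0173). The part of any of these in the results on the 46 genes was not tested.

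In the RefSeq annotation of Sscrofa11.1, 45 of the 46 genes had a chromosomal position. CDC6 lies on chromosome 12 at 22101281 to 22118441 and TOP2A on the same chromosome at 22001300 to 22028452, and TK1 (3785997 to 3794824) and BIRC5 (3747276 to 3755214) lie at its start. CDK1 lies on chromosome 14 at 64233945 to 64255290, BUB1 on chromosome 3 at 45585188 to 45623240 and PCNA on chromosome 17 at 14137746 to 14142584. Of the 45, 18 overlap another annotated gene, among them MCM7 with AP4M1, KIF20A with CDC23, PLK1 with ERN2, HMMR with NUDCD2 and SMC4 with TRIM59. Whether the counting used strand is not given in the sources used here, so the reads of such pairs may be shared.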

How the data were processed

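Per the paper's methods, the authors sequenced poly(A) RNA and used an nf-core pipeline with salmon to quantify it on a pig genome with a custom annotation. The submitters' processing notes name Sscrofa11.1. The authors deposited estimated counts per gene row, unpooled. The methods name gene length scaled counts. Of the values above 0, 78.6% are whole numbers, which does not settle if the deposited ones were scaled by length. The table has 56060 rows, 26046 with the suffix -iso and 25770 with -ext. Rows of a gene were summed and rounded, and 8 reporter rows (0.00142% of counts) were left out. Columns were assigned to medium and line by their headers, and 0 were unused.

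The tests used edgeR 4.0.16 and DESeq2 1.42.0 in R 4.3.3, and plots were drawn with matplotlib 3.10.9. The main test was the edgeR quasi-likelihood test with TMM factors (0.935 to 1.06), the default expression filter and the medium as the only term, with Benjamini-Hochberg adjustment over 14475 genes and a threshold of 0.05. The line was added as a block because both cultures of a line shared its origin (the correlations are given with the library totals). Lines have no replicate culture, so all p-values rest on the spread between these 8 libraries. Without the block this is the spread between lines within a medium. With the block, and in the line test, it is the spread left after line and medium. Scripts were tested on simulated data.

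The members and lists were chosen with earlier results of these data known. Full values were given for members past the threshold with or without the block, the 2 with the largest fold change in each role, and PCNA, MCM2, MCM5, TYMS, TOP2A, CDK1, CCNB1, PLK1 and BIRC5. AURKB, CDT1, SMC2, MCM7 and the genes outside the list that are named with values were chosen after their values were seen. Promoter sequences were not analysed here. A further duct marker is not reported here. Alternatives were the block, DESeq2, its size factors in edgeR, no expression filter, -ext rows left out and each library left out.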

Additional observations from a re-analysis of the deposited data

Results flagged for a closer look

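In complete medium FEN1, the flap nuclease of Okazaki fragment maturation, was set apart in 1 line. Its level was 17.8 CPM in Em and 11.4, 10.9 and 11.2 CPM in LPN, EPN1 and EPN2, so that the gap between Em and the nearest line was 0.914 of the whole range, above the critical value of Dixon's test for 4 samples. In differentiation medium the values were 19.5, 9.51, 12.1 and 12.3 CPM, and Em was again highest without passing that value. This was the only one of 92 groups of 4 libraries (46 genes in 2 media) to pass, fewer than the rate of 0.05 at which chance alone exceeds the critical value would give.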

How the results depend on the processing

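Adding the line as a replicate block moved the number of members called between the media from 0 to 2 replication and 17 mitosis genes. DESeq2 called 1 mitosis gene without the block, and 8 replication and 20 mitosis genes with it. Added after the data were seen, the blocked fit without Em called 1 and 11, without EPN2 2 and 15, and without EPN1 or LPN 0 of either. Over all genes it called 1730 without Em, 2989 without EPN2, 8 without EPN1 and 22 without LPN, instead of 2884. Leaving out single libraries from the blocked fit gave 0 to 2 replication and 0 to 14 mitosis genes, and 0 of both without the block. Over all genes, those leave-one-out fits called 2 to 3012 with and 70 to 1199 without the block. The median log2 fold change ranged over the leave-one-out fits from -0.72 (without Em in differentiation medium) to 0.03 (without Em in complete medium) for the replication genes and from -1.28 to -0.59 for the mitosis genes. Signs changed for 2 named genes that passed no test between the media. MCM2 ranged from -0.54 to 0.19 over the leave-one-out fits, with 0.19 without Em in complete and 0.07 without LPN in differentiation medium. MCM5 was -0.00 in the reported fit, 0.00 with -ext rows left out, 0.02 with DESeq2 and with its size factors, 0.10 in the blocked fit without LPN, and -0.41 to 0.34 over the leave-one-out fits. For the lines, the 4 replication and 2 mitosis genes became 19 and 22 with the DESeq2 likelihood ratio test and 0 and 0 with the medium term left out. Over all genes, the reported line test called 744 of 14475. The likelihood ratio test called 4669 of 17018, and the fit without the medium term 27 of 14475. The mitosis count was 1 with -ext rows left out (653 of 13892 genes) and 6 with no expression filter (1163 of 24671 genes). Leaving out any 1 library except EPN2 in complete medium, which keeps 1 library of that line, lowered the calls among members and over all genes. The cause of these moves was not tested. No scaling or filter moved the median of all genes by 0.1 or more. The effect of depth was not tested, and the lowest count of a member in any library was 37.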
